A study of Mus musculus with 4 samples.

Results

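Cytosolic ribosomal protein genes were compared between Met-low and Met-high cells of B16-F10, a metastatic mouse melanoma line. Members were the genes whose probe accession mapped to a RefSeq symbol beginning with Rpl or Rps and a digit, or to *Rplp0*, *Rplp1*, *Rplp2* or *Rpsa*. Pseudogenes, the ribosomal S6 kinases and *Rps19bp1* were left out. Of 94 such symbols in the gene table, 87 had a probe and 83 passed the filter, with a signal that the scanner marked as well above background on each array of Met-low, of Met-high, or of both. These 83 genes stood among 11957 genes kept in all. By name alone, 33 were counted to the small and 50 to the large subunit, paralogues and a retrogene included. The 4 arrays held total RNA of 2 Met-low and 2 Met-high samples. The cells were stained with an antibody against Met, the receptor of hepatocyte growth factor, sorted by its cell-surface level, and cultured separately for 3 days. No drug or growth factor was added, all cells came from the same line, and the populations were prepared independently for each RNA sample. All 8 melanocyte markers examined were well above background on all 4 arrays, and 0 of 4 keratinocyte markers were. Of these keratinocyte markers, 1 was so on 0 arrays and the others on some of the arrays. Single markers of fibroblasts (*Col1a2* of 5), endothelium (*Kdr* of 4) and immune cells (*Cd3e* of 4) were so on all 4 arrays. Of these 3 lists, 3, 2 and 2 markers were so on 0 arrays.

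The cytosolic ribosome translates messenger RNA into protein. Its small subunit decodes the message, and its large subunit forms the peptide bond and holds the tunnel through which the new chain leaves. Each ribosomal protein is needed in about the same number of copies, and their messages are among the most abundant of a growing cell. Most of these messages begin with a C followed by a run of pyrimidines, the terminal oligopyrimidine tract (TOP), through which the mTOR kinase and Larp1 control their translation. Arrays measure the amount of message and not its translation.

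Start sites are shown because the TOP tract lies there. Of 23 members described by name, 19 had a start site in the RefSeq table, 9 with a tract by the search given below and 10 without. All 9 with a tract are printed, and of the 10 without, *Rps7* and *Rpl5*, which were among the lowest ratios. Of those without a tract and not printed, *Rpl22* was also among the lowest ratios, and *Rps15* and *Rpsa* among the highest. The search did not require a tract to begin the message. That of *Rps27l* ended before the annotated start, and that of *Rps19* began at base 7 from it. For the 9 genes with a tract, only starts that held one are printed. The starts shown for *Rpl18*, *Rps9*, *Rps19*, *Rps27l* and *Rpl5* lay inside the annotated gene, not at its first base. Each line gives 15 bases before the annotated RefSeq start and 15 from it on, in the direction of transcription, and capitals mark the tract where there is one (GRCm38.p6):
*Rps24* (chr14:24490663-24490692, plus strand): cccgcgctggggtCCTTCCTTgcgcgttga
*Rps6* (chr4:86857353-86857382, minus strand): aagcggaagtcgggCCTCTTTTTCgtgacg
*Rplp2* (chr7:141447636-141447665, plus strand): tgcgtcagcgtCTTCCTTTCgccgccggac
*Rps27* (chr3:90213634-90213663, minus strand): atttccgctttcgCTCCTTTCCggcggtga
*Rpl18* (chr7:45718056-45718085, plus strand): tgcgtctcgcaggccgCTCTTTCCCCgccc
*Rps9* (chr7:3704026-3704055, plus strand): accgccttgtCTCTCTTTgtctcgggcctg
*Rpl22l1* (chr3:28805493-28805522, plus strand): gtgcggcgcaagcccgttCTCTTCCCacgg
*Rps19* (chr7:24884898-24884927, plus strand): gagggagcggggtgtggagggCTCTCCCac
*Rps27l* (chr9:66946071-66946100, plus strand): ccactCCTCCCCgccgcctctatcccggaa
*Rps7* (chr12:28635939-28635968, minus strand): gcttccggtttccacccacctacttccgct
*Rpl5* (chr5:107900513-107900542, plus strand): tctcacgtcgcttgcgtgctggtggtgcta

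RefSeq start-site sequences, reaching from 250 bases before to 50 after the start, were given for 63 of the 83 members, with 74 start sites. A tract, searched as a C followed by at least 5 pyrimidines that began within 10 bases of the start on the transcribed strand, was found for 35 members (55.6%) and for 21.9% of all 27025 genes. The annotated start itself was a C in 34.9% of the members and in 18.9% of all genes. The letters CCGGAAG, the core of the motif bound by ETS factors, stood on either strand of the window in 39.7% of the members and in 9.93% of all genes. The letters AAGATGG, the core of the YY1 motif, stood on either strand in 15.9% and in 7.28%. A TATAAA box on the transcribed strand, 40 to 15 bases before the start, was found in 1.59% of the members and in 2.41% of all genes. Apart from the tract, each of these was absent from most members. Related lists held some of them too. CCGGAAG stood in 30.3% of 33 genes of ribosome biogenesis, of which 12.1% had a tract. Of 9 other genes with TOP messages, 33.3% had a tract, 33.3% a C at the start and 22.2% AAGATGG. The windows of the members had a median GC content of 57%, against 52.7% over all genes. The shares were not tested against each other, and a gene with several start sites had more chances to hold them. The median log2 ratio was 0.013 over the 35 members with a tract and -0.010 over the 28 without.

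No ribosomal protein gene differed between the populations at an adjusted p under 0.05. The comparison used limma's moderated test on the log2 signal of each gene, taken relative to the upper quartile (75th percentile) of its array. It called 0 of the 83 members, against 5.73% of all genes (685 of 11957; 1.93% were higher and 3.8% lower in Met-high cells, 231 and 454 genes). At an unadjusted p under 0.05, 1 member passed, against 26.2% of all genes. That member count depended on the scaling. It was 0 relative to the array median, and 5 both after cyclic loess and with the 75th percentile taken over detected probes. The unadjusted share was not computed for genes of similar brightness. The study's methods name a t-test for comparisons of 2 groups, not for the arrays in particular. This methods' t-test called 0 members after Benjamini-Hochberg adjustment and 1 before it. The lowest adjusted p of a member by limma was 0.189, for *Rps7*. With 2 arrays against 2 the precision was limited, and the 95% intervals give its size. With this scaling, the interval of the log2 ratio lay within a 2-fold difference in either direction for all 83 members. For 61 members it lay within a 1.5-fold difference. Other scalings moved the ratios, as given below, and intervals were not computed for them. The lowest interval end was -0.87 and the highest 0.98. Differences inside the interval of a gene were not excluded by these arrays. In RNA of whole cultures, fewer cells with a message and less of it per cell cannot be told apart.

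**Figure D1:**
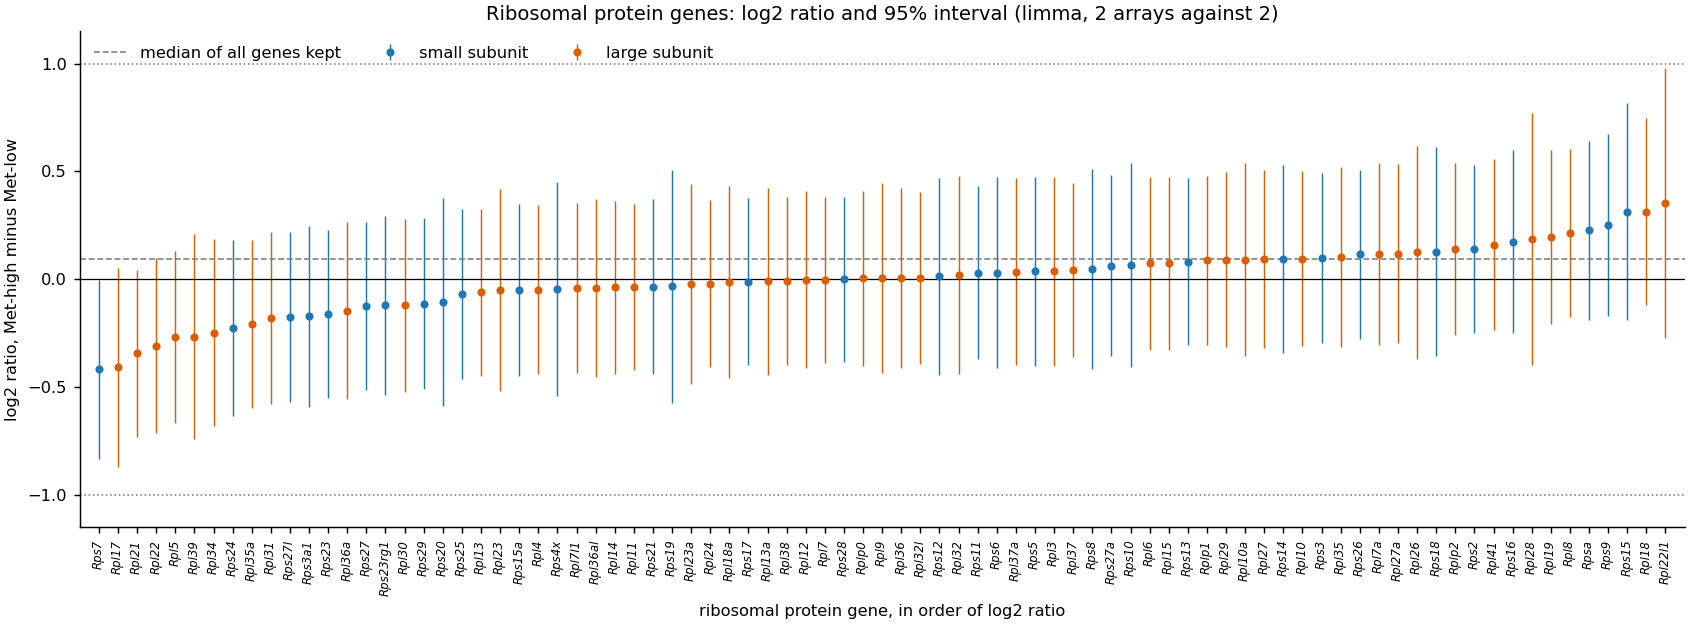
Log2 ratio (Met-high minus Met-low, vertical axis) of each of the 83 ribosomal protein genes, ordered from the lowest to the highest, with the 95% interval of limma as a bar. Blue marks small and orange large subunit genes, the dashed line is the median of all genes kept (0.096), and the dotted lines mark a 2-fold difference, which no interval crosses.

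The median log2 ratio, Met-high minus Met-low, was 0.0045 over the members and 0.096 over all genes kept. The small subunit genes had a median of 0.013 and the large subunit genes of 0.0040, so that the subunits were on the same level. The mean was higher in Met-high cells for 43 members and lower for 40, and 68 of 83 ratios lay within 0.2 of 0. Against the median of all genes, 19 members lay above and 64 below. The sign of the members' median depended on the scaling. It was -0.090 after quantile normalization, -0.13 after cyclic loess, -0.14 with the 75th percentile taken over detected probes, and 0.19 relative to the array median. Relative to the median of all genes tested, the members lay lower in each of these scalings, with a difference of -0.16 to -0.091 on the log2 scale. Without the filter on dim probes they lay above it, by 0.099, and the median of all genes was then -0.092.

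**Figure D2:**
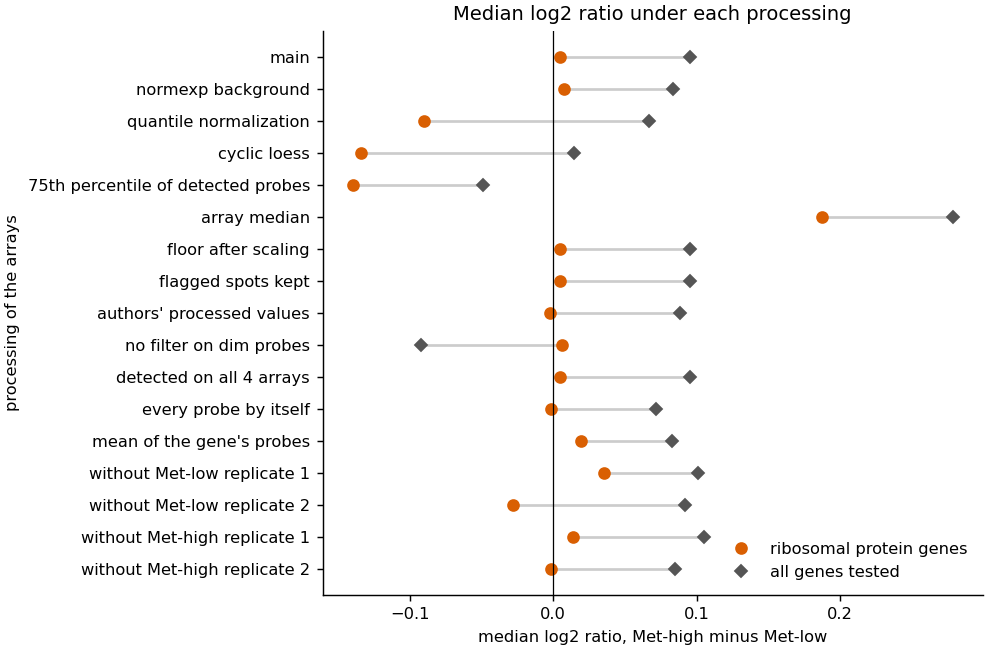
Median log2 ratio (Met-high minus Met-low, horizontal axis) of the ribosomal protein genes (orange circles) and of all genes tested (grey diamonds) under each processing of the arrays (vertical axis), including fits with 1 array left out. The members' median moved from -0.14 to 0.19 with the scaling and stayed below that of all genes in each setting except where dim probes were kept.

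On the single arrays, the median log2 signal of the members relative to the 75th percentile was 7.56 and 7.64 in Met-low replicates 1 and 2, and 7.63 and 7.69 in Met-high replicates 1 and 2. The arrays of the populations overlapped in this median. Among the members, replicate 2 minus replicate 1 had a median of -0.043 (SD 0.158 over genes) in Met-low and 0.040 (SD 0.178) in Met-high cells. The difference of the population means had a median of 0.0045 and an SD of 0.153. Means of 2 arrays vary less than single arrays do, so that this SD cannot be set directly against those between replicates. For 59 of the 83 members (71.1%) a pair of replicates differed by more than the populations did, against 52.1% of 11947 genes measured on 4 arrays and 53.9% of the brightest decile of these. The larger of a pair of single-array differences exceeds a difference of means for most genes even without a change, and these shares were not tested against each other. Over all genes kept, the SD was 0.636 between the population means, and 0.404 and 0.430 between replicates.

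**Figure D3:**
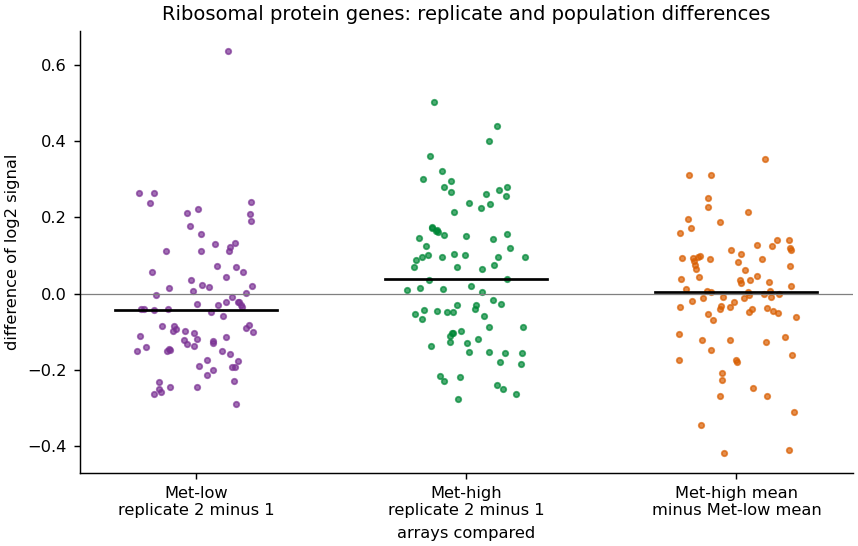
Difference in log2 signal (vertical axis) of the 83 ribosomal protein genes, 1 point per gene, between the 2 Met-low arrays, between the 2 Met-high arrays and between the population means (horizontal axis), with black bars at the medians (-0.043, 0.040 and 0.0045). The spreads are not on the same scale, since means of 2 arrays vary less than single arrays do.

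The arrays of both populations did not overlap for 35 of the 83 members (42.2%), against 58.4% of all genes kept. Both Met-high arrays lay above both Met-low arrays for 16 members (19.3%), against 35.7% of all genes, and below them for 19 (22.9%), against 22.6%. The share of the members was under that of all genes on the high side and near it on the low side, a difference that was not tested. These counts were made with this scaling only, and the members' median moved with the scaling, as given above.

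The members' probes were bright. Of the 83 genes, 81 lay in the brightest decile (10 equal bins) of all genes kept by mean signal. The other two were *Rpl7l1*, a paralogue, in decile 6, and *Rps23rg1*, a retrogene of *Rps23*, in decile 2. The brightest decile held few calls for any gene, 0.753% (9 of 1196), against 14.9% in the dimmest decile, so that a count of 0 members was close to the background of equally bright genes. The log2 ratios of the brightest decile had a median of 0.16 and an SD of 0.303, against 0.0045 and 0.153 for the members. The share of genes with arrays that did not overlap was 58.6% in the brightest decile. The brightest spot of a member had an intensity of 537286, 69.0% of the level the scanner marks as saturated, and 0 spots were saturated.

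**Figure D4:**
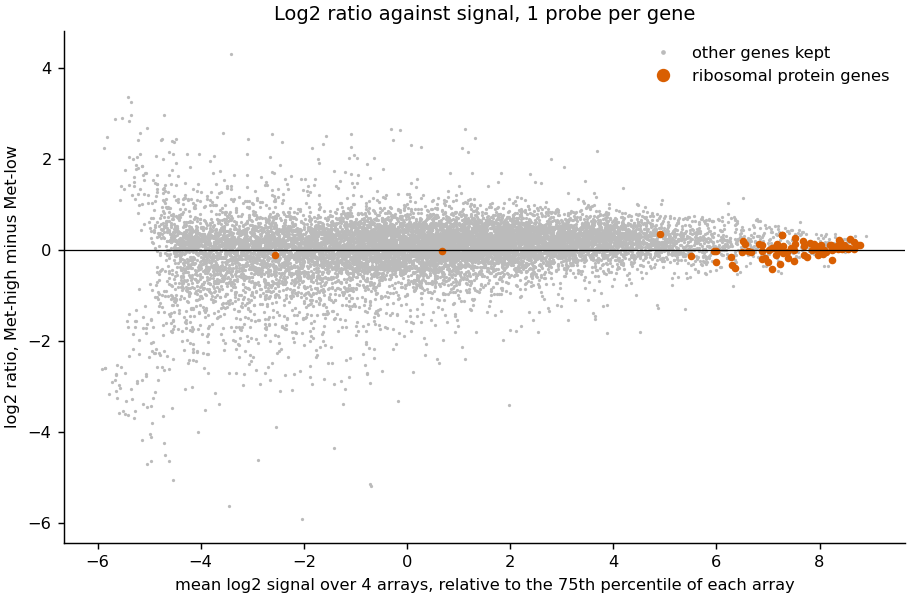
Log2 ratio (Met-high minus Met-low, vertical axis) against the mean log2 signal over the 4 arrays, scaled to the upper quartile of each (horizontal axis), 1 probe per gene. The ribosomal protein genes (orange) lie at the bright end, 81 of 83 in the brightest decile, close to a ratio of 0, while the other genes kept (grey) spread more widely.

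The lowest ratios were those of *Rps7*, *Rpl17*, *Rpl21*, *Rpl22* and *Rpl5*. They kept their sign under every scaling and with each array left out, and none passed the test over all genes, except that *Rpl17* passed with the replicate number as a block (adjusted p = 0.0487 by limma). *Rps7*, a small subunit protein that also binds the p53 ligase Mdm2, had log2 signals of 7.34 and 7.22 in Met-low and of 6.78 and 6.95 in Met-high cells. Its log2 ratio was -0.42 (SE 0.164, adjusted p = 0.189 by limma). *Rpl17*, which lines the exit of the peptide tunnel, gave 6.46 and 6.67 in Met-low against 6.03 and 6.28 in Met-high cells, for a log2 ratio of -0.41 (SE 0.182, adjusted p = 0.230 by limma). For both genes the Met-low arrays lay above the Met-high arrays, as in 22.6% of all genes. The other *Rpl17* probes gave log2 ratios of -0.38 to -0.48, except 1, which gave 0.03. *Rpl21* gave 6.499 and 6.456 against 6.10 and 6.17, a log2 ratio of -0.34. *Rpl5*, which carries the smallest ribosomal RNA of the large subunit into it together with Rpl11, gave 6.17 and 6.09 against 5.80 and 5.92, a log2 ratio of -0.27. Its partner *Rpl11* gave 8.067 and 8.062 against 8.057 and 8.003, a log2 ratio of -0.03, and its arrays lay within 0.1 of each other.

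The highest ratios were those of *Rpl22l1*, *Rpl18*, *Rps15*, *Rps9* and *Rpsa*. Fitted by gene, they also kept their sign under every setting and passed none of the tests over all genes. *Rpl22l1*, the paralogue of *Rpl22*, gave log2 signals of 4.42 and 5.05 in Met-low and of 5.08 and 5.10 in Met-high cells. Its log2 ratio of 0.35 (SE 0.247, adjusted p = 0.410 by limma) rested on Met-low replicate 1, without which it was 0.04. *Rpl22*, whose protein is known to repress its paralogue, gave 7.43 and 7.35 in Met-low against 7.15 and 7.0 in Met-high cells, for a log2 ratio of -0.31 (SE 0.161, adjusted p = 0.287 by limma). The pair thus had ratios of opposite sign, neither of which passed the test. *Rpl18*, a large subunit protein, gave 7.06 and 7.17 against 7.31 and 7.55, a log2 ratio of 0.31. *Rps15*, needed for export of the small subunit from the nucleus, gave 7.06 and 7.19 against 7.23 and 7.63, a log2 ratio of 0.31. *Rps9*, a protein of the small subunit body, gave 7.42 and 7.38 against 7.54 and 7.76, a log2 ratio of 0.25. In each of these the replicate Met-high arrays lay further apart than the lower of them lay above the Met-low arrays. *Rpsa*, a small subunit protein also known as the laminin receptor, gave 8.58 and 8.38 against 8.75 and 8.66, a log2 ratio of 0.23. The other *Rpsa* probes gave log2 ratios of 0.20, -0.02 and -0.04, so that its sign depended on the probe.

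The proteins of the stalk, which recruits elongation factors to the large subunit, were close to level. *Rplp0* gave log2 signals of 8.72 and 8.60 in Met-low and of 8.72 and 8.61 in Met-high cells, for a log2 ratio of 0.00 (95% interval -0.40 to 0.41). *Rplp1* and *Rplp2* had log2 ratios of 0.09 and 0.14. *Rps6*, the substrate of the S6 kinases, gave 7.41 and 7.46 against 7.33 and 7.61, a log2 ratio of 0.03. *Rps19*, the gene most often mutated in Diamond-Blackfan anaemia, gave 6.52 and 6.74 against 6.38 and 6.82, a log2 ratio of -0.03. The arrays of *Rps6* and *Rps19* overlapped between the populations. The ratios of *Rps6*, *Rps19*, *Rpl11* and the stalk genes changed sign with at least 1 setting of the processing or array left out. Of 19 members known as Diamond-Blackfan genes, 0 were called, 7 had a higher and 12 a lower mean in Met-high cells, and their median log2 ratio was -0.03. Of 7 members at the tunnel exit, 0 were called, with a median of -0.02. Of ribosomal proteins outside the naming rule, *Fau* and *Rack1* had log2 ratios of 0.05 and 0.11 and were not called.

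Of 8 listed paralogues with a probe, 4 were members. *Rpl32l*, also a member, was not on this list. *Rpl7l1* gave 0.72 and 0.67 in Met-low against 0.61 and 0.70 in Met-high cells, for a log2 ratio of -0.04, beside 0.00 for *Rpl7*. *Rpl36al* and *Rpl36a* had log2 ratios of -0.04 and -0.15. *Rps27l*, a target of p53, and *Rps27* had log2 ratios of -0.18 and -0.13, and both changed sign relative to the array median. *Rpl36a* and *Rpl36al* also changed sign there, and so did *Rpl7* and *Rpl7l1*. The 4 genes with a probe that were not kept were *Rpl3l*, *Rpl10l*, *Rpl39l* and *Rps4l*, of which *Rpl3l* is known from muscle and *Rpl10l* from testis. The last 3 were well above background on 0 arrays. *Rpl3l* was well above background on Met-high replicate 1 only, at a log2 signal of -2.28, and lay at -6.85 and -7.25 in Met-low and -7.26 in Met-high replicate 2.

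Of 51 members with several probes kept, all probes had the same sign in 29, and the ratios lay within 0.5 of each other in 46. In *Rpl17*, *Rpl22*, *Rpl23* and *Rps27a* they were 0.51 to 0.59 apart, and in 1 gene, *Rps24*, more than 1. *Rps24* codes for a small subunit protein whose messages are spliced to several ends. The probe that represents the gene, listed under NM_207635, gave 8.41 and 8.31 in Met-low and 8.21 and 8.06 in Met-high cells, for a log2 ratio of -0.23. The probe under NM_207634 gave 6.16 and 6.27 against 5.85 and 5.98, a log2 ratio of -0.30. The probe under NM_011297 gave 7.11 and 7.38 against 5.41 and 5.80, and thus fell from Met-low to Met-high, the log2 ratio being -1.64 (SE 0.212, adjusted p = 0.0303 by limma over 15625 probes).

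Fitted by probe, this was the single call among 168 probes of members, against 3.89% of all probes in either direction and 2.88% with a lower signal in Met-high cells. The log2 ratio lay between -1.83 and -1.45 over all settings and arrays left out. The call was lost without Met-low replicate 2 (adjusted p = 0.0728 by limma), without the filter on dim probes (0.117) and with the methods' t-test (0.229), and adjusted p-values ranged from 0.0013 to 0.229. Within each array, the signal of the NM_011297 probe minus that of the NM_207635 probe was -1.30 and -0.94 in Met-low and -2.80 and -2.26 in Met-high cells. Minus that of the NM_207634 probe it was 0.946 and 1.105 in Met-low and -0.44 and -0.18 in Met-high cells. Neither difference overlapped between the populations, and both are independent of the scaling of whole arrays. The gene was named because its probe ratios differed by more than 1 on these same arrays. This separation therefore restates the selection and adds no support, and its share among other probe pairs was not computed. Only the differences between arrays can be read here, since probes differ in brightness. A test of the probe against the other probes of its gene, limma's diffSplice, which was added after the data were seen, gave a difference of -1.37 with an adjusted p of 0.0629, against 0.163% of 6736 probes called. It passed after quantile normalization (0.0426) and cyclic loess (0.0414), and gave 0.288 to 0.967 with an array left out. Whether each probe reads only the transcript it is listed under was not tested.

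**Figure D5:**
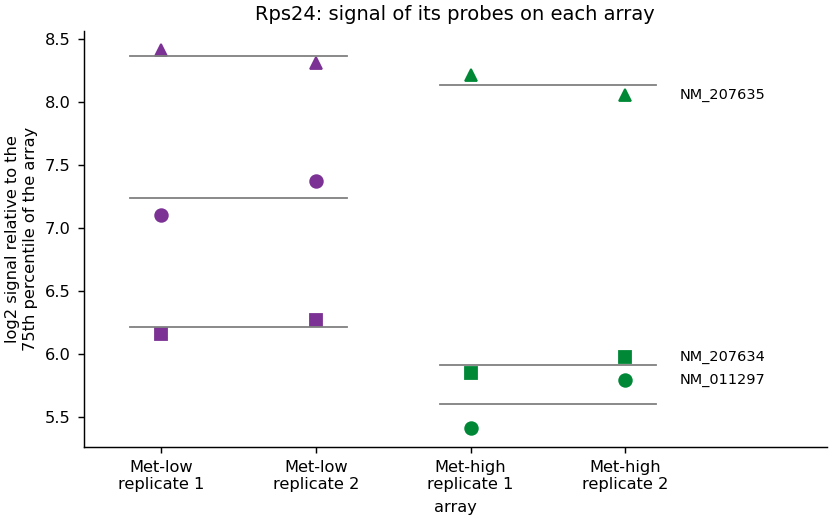
Log2 signal relative to the 75th percentile of the array (vertical axis) of the *Rps24* probes on each of the 4 arrays (horizontal axis), with purple for Met-low, green for Met-high and grey lines at the population means. The NM_011297 probe (circles) lay at 7.11 and 7.38 in Met-low and at 5.41 and 5.80 in Met-high cells, while the other probes (triangles, squares) differed by 0.23 and 0.30 in their means.

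The genes that build ribosomes were measured beside their protein components. Of 42 genes of ribosome biogenesis, 0 were called, against 5.73% of all genes. At an unadjusted p under 0.05 by limma 5 passed, against 26.2%. The mean was higher in Met-high cells for 28 and lower for 14, against 7118 and 4839 of all genes. Their median log2 ratio was 0.17, against 0.096 over all genes kept. The ratios ranged from *Dkc1*, the pseudouridine synthase of ribosomal RNA, at -1.34 (SE 0.359, adjusted p = 0.0983 by limma) to *Rrp1* at 0.78 (SE 0.226, adjusted p = 0.113 by limma). Fibrillarin (*Fbl*), the methylase of ribosomal RNA, had a log2 ratio of 0.43, nucleolin (*Ncl*) of -0.23 and nucleophosmin (*Npm1*) of -0.13, none of them called. Of 7 chaperones that escort new ribosomal proteins, 0 were called. Their ratios reached from -0.78 for *Tsr2*, the escort of Rps26, to 0.88 for *Grwd1*, which escorts Rpl3 (adjusted p = 0.0866 and 0.0597 by limma). The SDs of the log2 ratios over genes were 0.380 and 0.547 in these lists, against 0.153 in the ribosomal proteins. The lists differed in signal as well, with 10 of the 42 and 0 of the 7 genes in the brightest decile against 81 of 83, and the SD over all genes fell from 1.13 in the dimmest to 0.303 in the brightest decile. The part of signal in the difference was not tested.

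Of 16 genes that control TOP messages, 1 was called, lower in Met-high cells, against 3.8% of all genes. It was *Deptor*, an inhibitor of mTOR, with log2 signals of 1.36 and 1.04 in Met-low and of -0.13 and -0.22 in Met-high cells. Its log2 ratio was -1.38 (SE 0.183, adjusted p = 0.0216 by limma), and the call was lost without the filter on dim probes (0.121) and with the methods' t-test (0.214). Both Met-high arrays lay below both Met-low arrays. The kinase *Mtor* had a log2 ratio of 0.06, *Larp1*, the repressor of TOP messages, of -0.30 (SE 0.416), and *Myc*, an activator of ribosomal protein genes, of 0.05. Of 14 further genes with TOP messages, 0 were called and the median was 0.02. The elongation factors *Eef1a1* and *Eef2* had log2 ratios of 0.05 and 0.11. *Pabpc1*, the poly(A)-binding protein, gave 6.68 and 6.75 in Met-low against 5.97 and 5.87 in Met-high cells, for a log2 ratio of -0.79 that did not pass (SE 0.156, adjusted p = 0.0537 by limma). Its arrays did not overlap, as in 22.6% of all genes on the low side.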

How the data were processed

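Total RNA of 2 Met-low and 2 Met-high samples was labelled with Cy3 and hybridised to 4 one-colour Agilent mouse arrays. The deposited files are the Agilent Feature Extraction output. Their processed signal is a linear Cy3 intensity after the subtraction of background by the authors' software, beside flags for outliers and for signal well above background. The submitters' processing notes name version 10.7.3.1 of this software and the file headers 11.0.1.1. The authors also deposited log2 values, scaled and centred per probe, which served as an alternative. The array positions 1 and 2 of the slide held Met-low and 3 and 4 Met-high samples, so that position and population cannot be told apart.

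Here intensities were floored at 0.01 (0 spots lay below it), log2-transformed and scaled by subtracting the log2 of the array's 75th percentile (858 to 1331 over non-control spots). Flagged spots were left out and spots of a probe averaged. Accessions were matched to RefSeq symbols of GRCm38.p6 for 27427 of 39429 probes, giving 20832 genes. The probe with the highest mean signal stood for its gene. A gene was kept if well above background on both arrays of 1 population. The contrast Met-high minus Met-low was fitted in R 4.3.3 with limma 3.58.1 (lmFit, eBayes). The two-sided p-values were adjusted by Benjamini and Hochberg over all 11957 genes, after the code was tested on simulated data. Probes were also fitted singly. The methods' t-test used the same values.

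Named are called members, the 5 lowest and 5 highest ratios, members whose probes differed by more than 1, the stalk genes, *Rpsa*, *Rps6*, *Rpl5*, *Rpl11*, *Rps19*, and the listed paralogue pairs. Of the other lists, the rule names called genes, and further genes named were chosen after their values were seen. The members and lists were chosen with earlier results of these data known. Alternatives covered background correction, scaling, filters, probes per gene, the test, a replicate block and each array left out.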

Additional observations from a re-analysis of the deposited data

How the results depend on the processing

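The count of ribosomal protein genes called stayed at 0 in every setting but 2. Fitting every probe by itself called 1 probe, that of *Rps24*, and the fit with the replicate block called 1 gene, *Rpl17* (adjusted p = 0.0487 by limma). The replicate block called 3552 genes in all, 1974 higher and 1578 lower, against 685 without it. The deviations of same-numbered arrays from their group means correlated (r = 0.54 over 11947 genes, which are not independent), but with 2 pairs and no label for a shared batch the numbers were taken as names only. The members' median log2 ratio, 0.0045 as reported (small subunit 0.013, large 0.0040), was -0.090 after quantile normalization (-0.089 and -0.096), -0.13 after cyclic loess (-0.12 and -0.14), -0.14 with the 75th percentile over detected probes (-0.13 and -0.14) and 0.19 relative to the array median (0.20 and 0.19). With 1 array left out it lay between -0.028 and 0.036. These scalings moved the median of all genes from 0.096 to 0.067, 0.015, -0.049 and 0.28. Of all calls, 33.7% were higher in Met-high cells as reported, 19.2% with the percentile over detected probes and 59.1% (of 1472 calls) relative to the array median. Over all genes, 7 were called without the filter on dim probes and 1 by the methods' t-test. For single genes and probes, 453 values kept their side of the threshold, 5 lost it and 3 gained it, and 0 of the called values changed sign. Arrays give no counts, so that their number, 2 for each population, sets the precision.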

Other observations

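Some further probes of members gave ratios away from the probe that represents their gene, and none of these was called over all probes by limma. The second probe of *Rpl22* gave log2 signals of 2.87 and 2.80 in Met-low and of 1.80 and 2.19 in Met-high cells, for a log2 ratio of -0.84 (adjusted p = 0.0929 by limma), beside -0.31 for the probe that represents the gene. One probe of *Rpl23*, a large subunit protein that binds Mdm2, gave 3.82 and 3.96 against 3.27 and 3.23, a log2 ratio of -0.64 (adjusted p = 0.101 by limma), while the other two gave -0.05 and -0.08. A probe of *Rps27a*, a ubiquitin fusion gene, listed under NM_024277, gave -3.66 and -3.50 against -2.96 and -3.05, a log2 ratio of 0.57 (adjusted p = 0.126 by limma), while the other two gave 0.06 and 0.19. In each of these the arrays of the populations did not overlap, as in 58.4% of all genes kept. The probes were picked for their ratios, so that this adds no support. *Rpl13a*, often used as a reference gene, gave log2 ratios of -0.01, 0.38 and 0.40, the first of them from the probe that represents it.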
